A study of Mus musculus with 6 samples.

Results

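Colonic expression of the circadian clock genes was examined in 3 obesity-prone (OP) and 3 obesity-resistant (OR) mice. The 10 genes are *Arntl* (also called *Bmal1*), *Clock*, *Npas2*, *Per1*, *Per2*, *Per3*, *Cry1*, *Nr1d1*, *Nr1d2* and *Dbp*, taken by symbol, and all 10 were among the 17778 genes listed. None of the 10 passed the test between OP and OR mice, where 0.0222% of all genes did, and within both groups their levels spread widely. In 1 mouse of each group (OP mouse 3 and OR mouse 1) *Dbp*, *Per3* and *Nr1d2* were at their highest and *Arntl*, *Npas2* and *Cry1* at their lowest. These 2 mice were also the closest pair over all genes tested. They were the highest pair in 21.5% of all genes, so their high values are not a result about the clock genes. They were the lowest pair in 3.79% of all genes and in 3 of 12 markers of colon epithelium, so such low values were not particular to the clock genes. The mice of both groups were male wild-type C57BL/6J animals that had eaten a high-fat diet for 16 weeks and were 21 weeks old, so no group on a normal diet was measured here. OP and OR are the upper and lower quartiles of weight gain among mice on this diet, and the sources used here do not say which members of each quartile were sequenced. They do not give the segment of colon or the hour of harvest either, so no level could be set against a time of day. The mice were kept in equal spans of light and dark. Levels are given as FPKM, a read abundance corrected for transcript length and for library size, so that levels of different genes can be set side by side.

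The clock of mammalian cells is a feedback loop of transcription. ARNTL pairs with CLOCK or its paralog NPAS2, binds E-boxes and switches on the *Per* and *Cry* genes, whose proteins then shut off that pair, and it also switches on *Nr1d1*, *Nr1d2* and *Dbp*. NR1D1 and NR1D2 (REV-ERB alpha and beta) repress *Arntl*, *Clock*, *Npas2* and *Cry1* through ROR elements, and DBP is an activator that binds D-boxes. In peripheral tissues of mice *Arntl* and *Npas2* therefore run opposite to *Dbp* and *Nr1d1* over the day, and the levels of these genes depend on the hour at which a tissue is taken.

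The start regions of *Per3*, *Cry1*, *Per1* and *Nr1d1* are shown because they hold words that the factors of this loop are known to bind. A match describes the letters and is not a measured site. RefSeq windows (build GRCm38.p6) of 250 bases before to 50 bases after a transcription start were found for 9 of the 10 genes, and *Per2* was not matched. The words searched on both strands were the E-box CACGTG, the E'-box CACGTT, the D-box TTATGTAA and AGGTCA, the half-site of the ROR element, and no match counted for more than 1 of them. The E-box reads the same on both strands and differs from the E'-box in 1 letter. The 250 bases before the start are printed 5' to 3' on the gene's strand, with the words found in capitals. They lie at chr4:151044666-151044915 (minus strand), chr10:85185055-85185304 (minus strand), chr11:69098699-69098948 (plus strand) and chr11:98775378-98775627 (minus strand).
Per3: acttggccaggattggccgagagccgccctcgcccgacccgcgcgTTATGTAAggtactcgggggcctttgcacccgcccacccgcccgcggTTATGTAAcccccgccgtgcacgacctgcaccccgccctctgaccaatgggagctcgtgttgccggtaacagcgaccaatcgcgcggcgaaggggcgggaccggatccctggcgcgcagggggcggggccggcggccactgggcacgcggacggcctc
Cry1: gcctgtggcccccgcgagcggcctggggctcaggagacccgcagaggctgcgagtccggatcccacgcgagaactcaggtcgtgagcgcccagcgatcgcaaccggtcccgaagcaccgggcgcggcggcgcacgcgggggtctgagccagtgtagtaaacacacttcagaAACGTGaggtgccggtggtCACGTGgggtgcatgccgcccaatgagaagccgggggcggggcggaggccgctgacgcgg
Per1: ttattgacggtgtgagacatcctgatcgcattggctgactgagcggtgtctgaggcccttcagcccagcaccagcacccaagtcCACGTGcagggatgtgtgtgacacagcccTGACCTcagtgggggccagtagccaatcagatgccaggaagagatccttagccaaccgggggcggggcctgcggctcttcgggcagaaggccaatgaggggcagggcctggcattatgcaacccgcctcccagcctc
Nr1d1: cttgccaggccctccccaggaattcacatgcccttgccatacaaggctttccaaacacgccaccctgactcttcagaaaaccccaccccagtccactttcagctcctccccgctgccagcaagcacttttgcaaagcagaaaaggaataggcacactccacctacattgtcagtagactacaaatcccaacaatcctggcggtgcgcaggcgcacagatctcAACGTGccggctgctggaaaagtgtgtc
*Per3* held the D-box word at 205 and at 158 bases before its start. At least 1 D-box word was present in 0.938% of the 32851 mouse windows, and 2 or more were present in 0.0213%. *Cry1* held an E-box at 60 and an E'-box at 79 bases before its start, *Per1* an E-box at 166 and a ROR half-site at 137, and *Nr1d1* an E'-box at 28. ROR half-sites were also found in windows of *Arntl*, *Clock* and *Nr1d2*. The E-box was present in 7.15%, the E'-box in 4.68% and the ROR half-site in 16.3% of all windows. None of the words was found in the windows of *Npas2* and *Dbp*, which says only that these letters are not in those windows.

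Tissue identity was checked first. *Cdx2*, a transcription factor of the intestinal epithelium, had 180 to 246 FPKM, and *Lct*, the lactase of the small intestine, did not pass the filter on low values. *Sis*, the sucrase-isomaltase of the small intestine, did pass, with 0.4, 0.08 and 8.76 FPKM in OP mice 1, 2 and 3, against 10.06, 1.06 and 3.84 FPKM in OR mice 1, 2 and 3. Its 2 highest values were in OR mouse 1 and OP mouse 3. All 10 clock genes passed that filter, which kept genes that reached 0.5 FPKM in 3 or more mice. Averaged over the 6 mice, the order of their levels was *Nr1d2* (21.9 ± 5.80 FPKM, SD, n = 6), *Nr1d1* (20.8 ± 5.69), *Cry1* (20.4 ± 10.2), *Dbp* (16.03 ± 8.69), *Arntl* (14.6 ± 5.76), *Per2* (13.9 ± 5.22), *Per1* (13.8 ± 6.07), *Clock* (10.2 ± 1.94), *Npas2* (7.79 ± 1.57) and *Per3* (7.67 ± 3.77). Of the 9 gaps between neighbours in this order, the one between *Clock* and *Npas2* was larger than both SDs, and *Clock* was above *Npas2* in 5 of 6 mice. The other 8 gaps did not exceed the spread between mice.

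*Arntl*, the activator on which the loop depends, stood at 14.1, 24.7 and 10.8 FPKM in OP mice 1, 2 and 3, and at 7.74, 14.3 and 16.1 FPKM in OR mice 1, 2 and 3, the order kept below. The highest and the lowest value, 3.19-fold apart, were in OP mouse 2 and OR mouse 1, and the groups overlapped. *Npas2*, which can stand in for *Clock*, had 8.71, 8.18 and 5.24 FPKM in the OP mice, against 6.74, 8.16 and 9.70 FPKM in the OR mice. Its lowest 2 values were in OP mouse 3 and OR mouse 1, as for *Arntl*. *Clock* varied least on the log2 scale, with 8.03, 12.6 and 8.58 FPKM in the OP mice, against 10.96, 8.85 and 12.03 FPKM in the OR mice.

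*Cry1*, a repressor of the ARNTL pair, had 35.5, 29.3 and 11.8 FPKM in the OP mice, against 10.04, 21.3 and 14.6 FPKM in the OR mice. It had the widest spread of the clock genes on the log2 scale, and OP mouse 3 and OR mouse 1 again held the lowest values. The other repressors of the pair did not share this order. *Per1*, which also answers to hormones and other acute signals, had 7.11, 10.6 and 13.8 FPKM in the OP mice, against 24.6, 10.9 and 15.7 FPKM in the OR mice. *Per2* had 7.01, 19.1 and 12.2 FPKM in the OP mice, against 19.3, 9.28 and 16.8 FPKM in the OR mice. Both were lowest in OP mouse 1, where *Cry1* was highest, and both were highest in OR mouse 1. *Per3*, whose start region holds the D-box words shown above, had 6.25, 4.47 and 13.2 FPKM in the OP mice, against 11.6, 5.78 and 4.69 FPKM in the OR mice. OP mouse 3 and OR mouse 1 stood above the other 4 mice, none of which exceeded 6.25 FPKM.

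*Dbp*, the D-box activator and a direct output of the loop, had its 2 highest values in the same mice as *Per3*. It had 12.4, 11.4 and 24.3 FPKM in the OP mice, against 29.6, 8.80 and 9.76 FPKM in the OR mice. The high values thus came from 1 mouse of each group. *Nr1d1*, the heme-sensing repressor REV-ERB alpha, had 21.2, 13.97 and 20.1 FPKM in the OP mice, against 31.2, 18.3 and 20.2 FPKM in the OR mice. *Nr1d2* had 20.01, 15.3 and 28.1 FPKM in the OP mice, against 29.7, 21 and 17.4 FPKM in the OR mice. Both were highest in OR mouse 1 and lowest in OP mouse 2, the mouse with the highest *Arntl*.

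**Figure D1:**
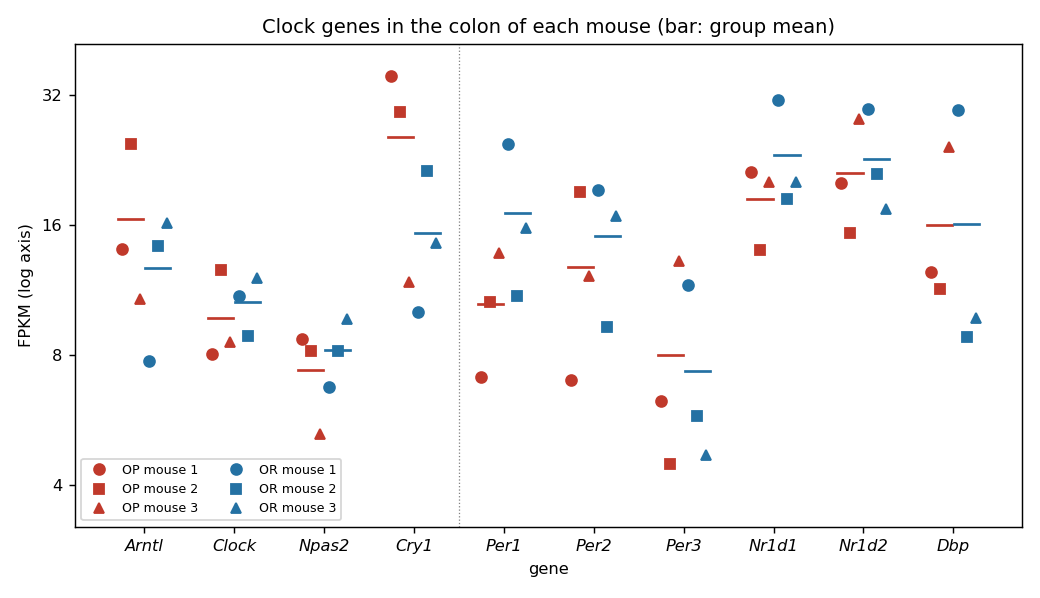
FPKM of the 10 clock genes in each mouse on a log axis, with OP mice in red, OR mice in blue, the marker shape giving the mouse number and a bar at each group mean. The red and blue points overlap in every gene, and OP mouse 3 and OR mouse 1 hold the lowest values of *Arntl*, *Npas2* and *Cry1* and the highest of *Per3*, *Nr1d2* and *Dbp*.

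Whether the mice looked sampled at one phase of the clock was examined from genes that run opposite to each other. The FPKM ratio of *Dbp* to *Arntl* was 0.883, 0.460 and 2.25 in the OP mice, against 3.82, 0.614 and 0.605 in the OR mice. It was above 1 in OP mouse 3 and OR mouse 1 and below 1 in the other 4 mice, and it spanned 8.31-fold over the 6 mice. Within the groups it spanned 4.89-fold in OP mice and 6.32-fold in OR mice. The ratio of *Per3* to *Cry1* was 0.176, 0.153 and 1.12 in the OP mice, against 1.16, 0.271 and 0.322 in the OR mice, which placed the same mice apart. The ratio of *Dbp* to *Npas2* was 4.63 in OP mouse 3 and 4.39 in OR mouse 1 and from 1.01 to 1.43 in the other mice. The ratios of *Nr1d1* to *Arntl*, of *Nr1d1* to *Npas2* and of *Per2* to *Arntl* spanned 7.12-fold, 2.71-fold and 5.01-fold, and each was highest in OR mouse 1. In all 6 ratios the OP mice overlapped the OR mice. The clock gene ratios thus differed between mice of the same group, in OP and in OR mice alike, and their relation to the hour of harvest was not tested.

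A clock index was formed for each mouse as the mean log2(FPKM + 1) of *Per1*, *Per2*, *Per3*, *Nr1d1*, *Nr1d2* and *Dbp* less that of *Arntl*, *Clock*, *Npas2* and *Cry1*. It was -0.31, -0.50 and 0.94 in the OP mice, against 1.31, -0.11 and -0.0032 in the OR mice. Its mean came to 0.05 ± 0.78 (SD, n = 3) among OP mice, against 0.40 ± 0.79 (SD, n = 3) among OR mice, a difference OP minus OR of -0.36. With all 6 mice that difference was smaller than the SD of either group, and no test was made because the index is built from genes chosen for this purpose. Single mice set its size and direction. It was 0.10 without OR mouse 1, -0.084 without OP mouse 2, -0.18 without OP mouse 1, -0.56 without OR mouse 3, -0.61 without OR mouse 2 and -0.80 without OP mouse 3. Without both OP mouse 3 and OR mouse 1, a choice made after seeing the data, it was -0.35, and both remaining OP mice were below both remaining OR mice. With so few mice left, and those left out chosen after these values were seen, this order cannot show a group difference. OP mouse 3 and OR mouse 1 had almost the same mean level of the 4 genes subtracted, 3.29 and 3.28 on the log2 scale, and the highest means of the other 6, 4.23 and 4.59. Markers of enteric neurons and glia moved with the index. Their summed level over 8 genes, none at 0, was 22.8, 25.9 and 45.1 FPKM in the OP mice, against 48.6, 23.4 and 25.9 FPKM in the OR mice. OP mouse 3 and OR mouse 1 were the highest pair in 4 of the 8 markers, among them *Elavl4* and *Uchl1*, against 21.5% of all genes. The same mice were the lowest pair in 3 of 12 markers of colon epithelium, against 3.79% of all genes: *Epcam* (935 FPKM in OP mouse 3 and 994 FPKM in OR mouse 1), *Krt8* (2434 and 2705 FPKM) and *Krt20* (406 and 403 FPKM). They were the highest pair in *Sis*, given above. The part of these cell types in the clock gene values was not tested. In bulk tissue a different number of cells of a type and a different amount of RNA per cell cannot be told apart.

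**Figure D2:**
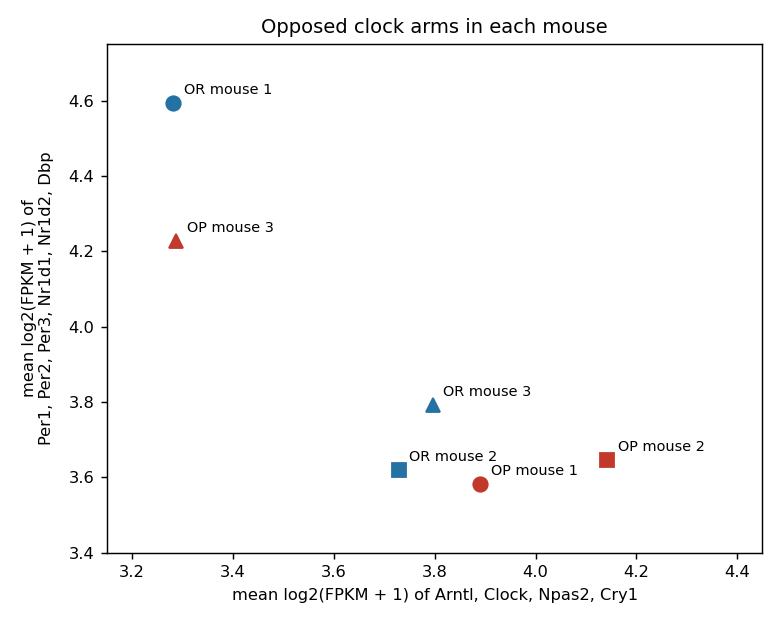
Mean log2(FPKM + 1) of *Arntl*, *Clock*, *Npas2* and *Cry1* (horizontal) against that of the other 6 clock genes (vertical), 1 point per mouse, OP in red and OR in blue. OP mouse 3 (3.29, 4.23) and OR mouse 1 (3.28, 4.59) lie at the upper left, and the other 4 mice lie lower and to the right.

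The 15 pairs of mice were compared by the root-mean-square difference of log2(FPKM + 1) over the 10 genes. Pairs of the same group differed by 0.39 to 0.91 with a median of 0.79 (6 pairs). Pairs of an OP and an OR mouse differed by 0.35 to 1.06 with a median of 0.67 (9 pairs). The median for pairs of one group was thus not below that for pairs of different groups. The closest pair was OP mouse 1 with OR mouse 2 (0.35), followed by OR mice 2 and 3 (0.39), OP mouse 3 with OR mouse 1 (0.44) and OP mouse 2 with OR mouse 3 (0.44). Over all 13520 genes tested, the closest pair was OP mouse 3 with OR mouse 1 (0.34). These 2 mice held the highest values in 3 of the 10 clock genes (*Per3*, *Nr1d2* and *Dbp*) and in 21.5% of all genes tested, and the lowest values in 3 of the 10 (*Arntl*, *Npas2* and *Cry1*) and in 3.79% of all genes tested. The share of clock genes in which they were highest is close to that of all genes, so it is not a result about the clock genes. The share in which they were lowest is above that of all genes. It was not particular to the clock genes, since these mice were also the lowest pair in 3 of 12 markers of colon epithelium.

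**Figure D3:**
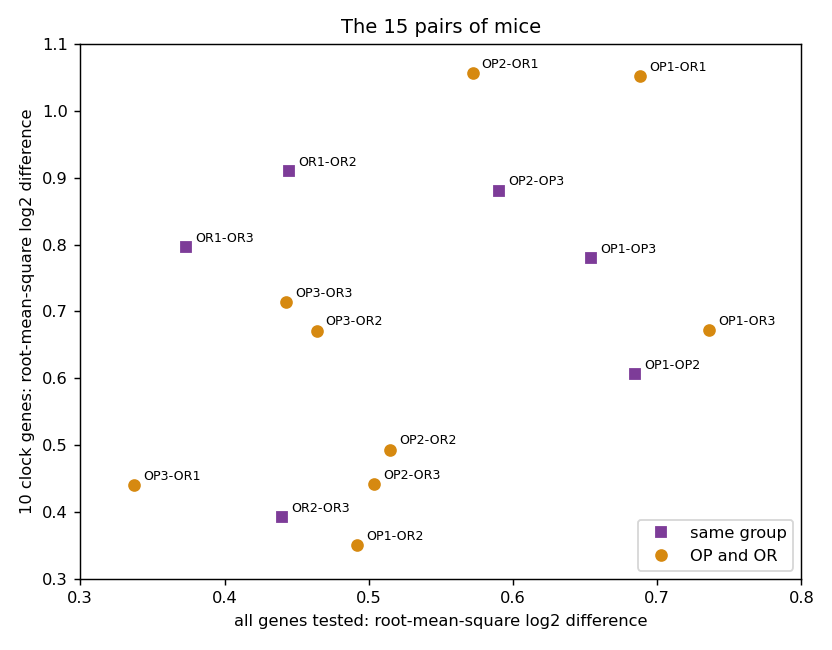
Root-mean-square log2 difference of each of the 15 pairs of mice over all genes tested (horizontal) and over the 10 clock genes (vertical), with pairs of the same group as squares and pairs of an OP and an OR mouse as circles. The squares (0.39 to 0.91) lie within the vertical range of the circles (0.35 to 1.06).

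The clock genes varied more between mice than most genes did. The difference between the highest and the lowest mouse on the log2 scale had a median of 1.36 over the 10 genes, from 0.59 for *Clock* to 1.72 for *Cry1*. The median over all 13520 genes tested was 0.68, and 9 of the 10 clock genes were above it. Genes were not matched for level, and such a spread was not particular to the clock genes. The median was 2.39 over adipocyte, 1.75 over colon epithelial, 1.56 over macrophage and 1.36 over fibroblast markers, and 1.55 over immediate-early genes. It was 1.17 over smooth muscle markers, 0.85 over markers of neurons and glia, 0.72 over clock outputs and 0.69 over other clock regulators.

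OP and OR mice were then compared by limma-trend over all genes tested. Of the 10 clock genes, 0 were called, against 0.0222% of all genes, all of them lower in OP mice. A call needed a q-value below 0.2 and a fold change of 1.2 or more, or of 0.83 or less. At an unadjusted p below 0.05 the count was 0 of 10, against 4.03% of all genes (68 higher and 477 lower in OP mice, or 154 and 421 after median-of-ratios scaling). OP mice overlapped OR mice in all 10 genes, whereas they did not overlap in 8.44% of all genes (1.63% with OP mice above and 6.81% with OP mice below). The mean on the log2 scale was higher in OP mice in 4 of the 10 genes and in 29.9% of all genes. Over the 10 genes the log2 ratio of OP to OR had a median of -0.12 and over all genes one of -0.10, and after median-of-ratios scaling both were 0.01 and 5 of the 10 genes were higher in OP mice.

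The widest differences were those of *Per1* and *Cry1*. *Per1* had 10.5 ± 3.33 FPKM (SD, n = 3) among OP mice, against 17.1 ± 6.95 FPKM (SD, n = 3) among OR mice, which gives a log2 ratio of OP to OR of -0.63 (standard error 0.33, 95% interval -1.40 to 0.14, Benjamini-Hochberg adjusted p = 0.945, limma-trend). *Cry1* had 25.5 ± 12.3 FPKM (SD, n = 3) among OP mice, against 15.3 ± 5.67 FPKM (SD, n = 3) among OR mice, and a log2 ratio of 0.63 (standard error 0.42, 95% interval -0.36 to 1.62, limma-trend adjusted p = 0.945). *Arntl* followed at 0.33 (95% interval -0.50 to 1.16), *Nr1d1* at -0.30 (-0.88 to 0.27) and *Per2* at -0.27 (-1.17 to 0.63). These sizes rested on single mice: *Arntl* was at 0.017 without OP mouse 2 and 0.034 without OR mouse 1, *Nr1d1* at -0.081 without OR mouse 1, *Per1* at -0.34 without OR mouse 1, and *Cry1* at 0.33 without OP mouse 1 and 1.09 without OP mouse 3. *Dbp* had 16.02 ± 7.17 FPKM (SD, n = 3) among OP mice, against 16.04 ± 11.7 FPKM (SD, n = 3) among OR mice, and its log2 fold change was 0.13 (95% interval -0.98 to 1.24). *Npas2*, *Clock*, *Nr1d2* and *Per3* had log2 fold changes between -0.15 and 0.07. The adjusted p of the 10 genes lay between 0.945 and 0.984, and the two-sided exact permutation test of the mean FPKM gave p from 0.2 to 1, where 3 mice against 3 cannot go below 0.1. The intervals are wide, so these tests do not show that the groups were alike: for *Dbp* the interval reaches beyond a log2 difference of 1 upward and to nearly 1 downward.

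**Figure D4:**
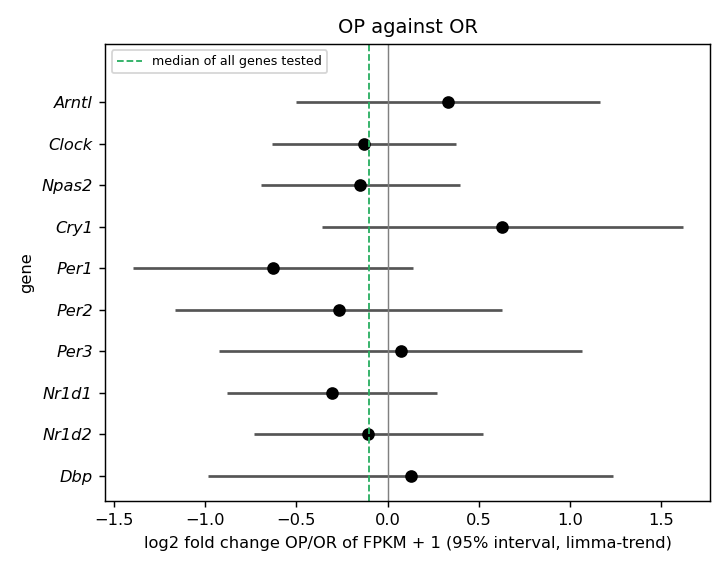
Log2 fold change OP/OR of FPKM + 1 for each clock gene with its 95% interval from limma-trend, with the median of all genes tested as a dashed line. All 10 intervals include 0, from *Cry1* at 0.63 to *Per1* at -0.63.

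Other regulators of the clock were described from a list of 17 genes, of which 15 passed the filter and *Rorb* and *Fbxl21* did not. By limma-trend 0 of the 15 were called in either direction, and 0 had an unadjusted p below 0.05. The median log2 fold change was -0.09, against -0.10 over all genes. *Tef*, which encodes a D-box activator related to DBP, had 30.0, 19.2 and 46.6 FPKM in the OP mice, against 47.9, 26.7 and 18.1 FPKM in the OR mice. *Hlf*, the third activator of that family, had 1.86, 2.08 and 2.93 FPKM in the OP mice, against 3.16, 2.62 and 1.88 FPKM in the OR mice. *Cry2*, the paralog of *Cry1*, had 10.7, 10.6 and 16.9 FPKM in the OP mice, against 17.2, 11.3 and 7.48 FPKM in the OR mice. In these 3 genes, as in *Dbp* and *Per3*, OP mouse 3 and OR mouse 1 had the highest values, and *Cry2* did not run with *Cry1*. They were the highest pair in 7 of the 15 genes of the list, against the 21.5% of all genes given above.

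The repressor *Ciart*, which acts on the ARNTL pair, stood out in a single animal, with 7.82 FPKM in OR mouse 1 and 2.09 to 2.94 FPKM in the other 5 mice. *Rora*, which encodes an activator at ROR elements, had 0.58 to 1.2 FPKM. *Bhlhe40* and *Bhlhe41*, repressors that compete for E-boxes, had 38.7 to 83.7 and 0.27 to 0.77 FPKM, and *Nfil3*, the repressor at D-boxes, had 4.92 to 7.19 FPKM. In each of these 4 genes the groups overlapped.

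**Figure D5:**
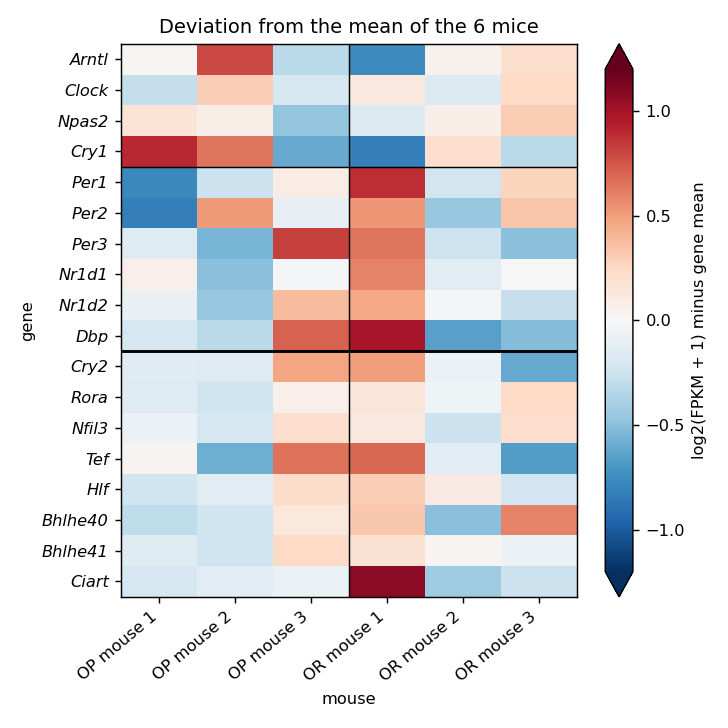
Deviation of log2(FPKM + 1) from the mean of the 6 mice for the 10 clock genes (above the thick line) and 8 other clock regulators (below it), with OP mice in the 3 left columns and OR mice in the 3 right columns and the colour scale ending at 1.2 in each direction. OP mouse 3 and OR mouse 1 are below the mean in *Arntl*, *Npas2* and *Cry1* and above it in *Per3*, *Nr1d2*, *Dbp*, *Tef* and *Cry2*.

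Genes known as outputs of the clock were taken from a list of 12, all of which passed the filter. By limma-trend 0 of the 12 were called, and at an unadjusted p below 0.05 1 was lower in OP mice and 0 were higher, where 4.03% of all genes passed (477 lower and 68 higher). That gene was *Sik1*, a salt-inducible kinase, with 1.17, 1.54 and 2.55 FPKM in the OP mice, against 5.62, 2.74 and 3.45 FPKM in the OR mice. Its log2 ratio of OP to OR was -0.83 (standard error 0.29, limma-trend adjusted p = 0.945). It was the single gene of the 12 whose groups did not overlap, a share close to the 8.44% of all genes, so neither count is a result about clock outputs. *Slc9a3*, a sodium/proton exchanger of the colonic surface, had 231 FPKM in OP mouse 2 and 30.8 to 53.3 FPKM in the other 5 mice. *Alas1*, the first enzyme of heme synthesis, had 31.4 to 68.3 FPKM, and its groups overlapped. *Usp2* and *Wee1*, targets of the ARNTL pair, had 8.97 to 15.7 and 5.58 to 9.95 FPKM with log2 fold changes of -0.06 and -0.05.

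The genes outside the lists whose levels across the 6 mice were most like those of *Dbp* were *Gm7579*, *Cartpt* and *Sst*, with root-mean-square differences of 0.20, 0.22 and 0.22 on the centred log2(FPKM + 1) scale, where a gene at the same level in every mouse would be at 0.62. *Sst*, which encodes somatostatin, had 44.3, 34.3 and 109 FPKM in the OP mice, against 124, 35.6 and 47.0 FPKM in the OR mice. *Cartpt* encodes a neuropeptide and had 0.96 to 3.72 FPKM. Most like *Arntl* were *Klf4*, *Tmco3* and *Skil* at 0.15, 0.16 and 0.18, against 0.48 for a flat gene. *Klf4*, a transcription factor of differentiating colonic epithelium, had 247, 376 and 155 FPKM in the OP mice, against 158, 217 and 239 FPKM in the OR mice.

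Markers of other cell types were read beside the comparison of OP with OR mice, and their part in it was not tested. The summed levels of 10 fibroblast markers were 112 to 172 FPKM in OP mice and 257 to 424 FPKM in OR mice, those of 8 blood endothelial markers 16.03 to 26.4 and 29.7 to 49.7 FPKM, and those of 7 macrophage markers 32.4 to 88.5 and 94.9 to 127 FPKM, without overlap between the groups. The sums of epithelial (12 genes), smooth muscle (8), T and B cell (8) and adipocyte (5) markers overlapped between the groups, and so did that of 6 measured markers of small intestine, stomach, liver and pancreas, of which *Cela1* also passed the filter, with 27.6 to 115 FPKM. By limma-trend 0 genes of these lists were called in either direction.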

How the data were processed

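Colon RNA of 3 OP and 3 OR mice was sequenced, 1 library per mouse. The deposited values are FPKM, which the authors obtained by filtering reads with SOAPnuke, aligning them with Bowtie2 to a reference gene set and quantifying with RSEM. Bowtie2 and RSEM versions differ between the methods and the labels, and the submitters' processing notes name HISAT2 2.0.4 and GRCm39. Between 643 and 778 genes per mouse lay between 0.01 and 0.05, where rounding to 0.01 hides steps of single reads, so depth and counting error are unknown.

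Samples were grouped by their labels. The 13520 genes that reached 0.5 FPKM in 3 or more mice were tested. limma-trend (limma 3.58.1 in R 4.3.3) was fitted to log2(FPKM + 1) of both groups with no covariate, and p-values were adjusted by Benjamini-Hochberg over those genes. The thresholds are those of the study. Because of the added 1, fold changes of weakly expressed genes are understated. DESeq2, the authors' tool, needs counts and was not run. Exact permutation tests used SciPy 1.17.1. The fit was tested on simulated data for OP against OR with 200 changed genes among 13520, of which 63% were recovered at a log2 change of 1 and 97% at 2. Of the simulated calls, 19.7% and 19.2% were unchanged genes. The noise was drawn for each gene independently of the others, without shifts shared by the genes of a mouse. These rates therefore do not carry over to the real fit, where *Dcn* was not called at a log2 ratio of -2.03 (limma-trend adjusted p = 0.624). The labels do not say more of the replicates than that they are separate samples, so p-values measure the spread between these samples.

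The genes named are the clock genes, 2 lists of other clock regulators and clock outputs (the 3 widest differences of each and a fixed few), the 3 genes most like *Dbp* and *Arntl*, and the widest differences among glucocorticoid-responsive and immediate-early genes; other genes were chosen after their values were seen. Some genes that this rule names are not reported here. The clock genes and all lists were chosen with earlier results of these data known. Alternatives tried were a block for the replicate number, leaving out single mice, sample weights, other filters, a pseudocount of 0.1, scaling by median of ratios, limma with no trend and an index from 6 of the genes; leaving out OP mouse 3 and OR mouse 1 together was chosen after seeing the data. Promoter windows are from RefSeq on GRCm38.p6, another build than the authors', and were matched by symbol.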

Additional observations from a re-analysis of the deposited data

How the results depend on the processing

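Under every alternative run 0 clock genes were called, and 0 of all genes were called higher in OP mice. Of all genes, 3 were called lower. Sample weights gave 5, limma without trend 2, and leaving out 1 mouse at a time 0 to 1. The count was 0 under median-of-ratios scaling, under a pseudocount of 0.1, without the filter, under a filter of 1 FPKM in all 6 mice, and without OP mouse 3 and OR mouse 1 together. The cause was not tested. Fitting the replicate block gave 0 genes lower in OP mice, and the clock genes had a lowest adjusted p of 0.999 (limma-trend). Same-numbered mice are different animals, the correlations of their deviations from the group means over all genes tested were -0.144, -0.157 and 0.0709, and 0 of the 6 mice correlated best with its own number.

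The direction of 5 clock genes, none of them called, turned under some alternatives. On the log2 scale leaving out 1 mouse at a time gave -0.27 to 0.050 for *Npas2* (above 0 without OP mouse 3), -0.59 to 0.073 for *Per2* (above 0 without OP mouse 1), -0.32 to 0.10 for *Nr1d2* (above 0 without OP mouse 2 or OR mouse 1), -0.32 to 0.41 for *Per3* and -0.20 to 0.65 for *Dbp* (both below 0 without OP mouse 3, OR mouse 2 or OR mouse 3). For the genes that kept their sign the range was 0.017 to 0.58 for *Arntl*, -0.31 to -0.016 for *Clock*, 0.33 to 1.09 for *Cry1*, -0.89 to -0.34 for *Per1* and -0.45 to -0.081 for *Nr1d1*. Median-of-ratios scaling gave 0.027 for *Nr1d2*, and sample weights gave -0.074 for *Per3* and -0.022 for *Dbp*. *Cry1* had an unadjusted limma-trend p of 0.0120 without OP mouse 3 (adjusted p = 0.415) and 0.0214 without OP mouse 3 and OR mouse 1 together (adjusted p = 0.911), and *Per1* had 0.0292 without OR mouse 2 (adjusted p = 0.853). The clock index difference (OP minus OR) was -0.37 at a pseudocount of 0.1, -0.356 after scaling by median of ratios and -0.14 from 6 of the genes. With 3 mice a group and unknown depth, differences as small as those of most clock genes could not be resolved.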

Other observations

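Glucocorticoid-responsive genes, which like *Per1* answer to the daily rise of adrenal hormone, were listed as 6 genes and all passed the filter. By limma-trend 0 were called, 0 passed an unadjusted p of 0.05, and their median log2 ratio of OP to OR was -0.27. The widest differences were those of *Errfi1* (-0.50, standard error 0.28), *Zbtb16* (-0.40, standard error 0.36) and *Dusp1* (-0.31, standard error 0.26), all 3 at a limma-trend adjusted p = 0.945. *Fkbp5*, *Zbtb16* and *Dusp1* had their highest values in OR mouse 1, with 127, 6.68 and 22.7 FPKM, as had *Per1* and *Per2*. The other genes of the list did not. *Errfi1* was highest in OR mouse 3 (91.9 FPKM), *Sgk1* in OP mouse 1 (279 FPKM) and *Tsc22d3* in OP mouse 2 (45.8 FPKM).

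Immediate-early genes, which are transcribed within minutes of a stimulus, were listed as 14 genes, of which 12 passed the filter. By limma-trend 0 were called, while at an unadjusted p below 0.05 3 were lower and 1 was higher in OP mice, where 4.03% of all genes passed. The groups did not overlap in 4 of the 12, against 8.44% of all genes. *Nr4a1*, an orphan nuclear receptor, had 2.58, 2.79 and 3.65 FPKM in the OP mice, against 8.41, 19.2 and 17.5 FPKM in the OR mice, and a log2 ratio of -1.93 (standard error 0.31, limma-trend adjusted p = 0.582). The log2 ratio was -1.004 for *Fosb* (standard error 0.25, limma-trend adjusted p = 0.798) and -0.80 for *Atf3* (standard error 0.40, limma-trend adjusted p = 0.945). *Atf3* was not among the genes below an unadjusted p of 0.05, and its groups overlapped. The gene that was higher was *Jun*, at 0.60 (standard error 0.22, limma-trend adjusted p = 0.945). It had 59.6 to 111 FPKM in OP mice and 52.5 to 55.9 FPKM in OR mice. The mean on the log2 scale was higher in OP mice in 4 of the 12 genes. *Nr4a1* was lowest among the OR mice in OR mouse 1, the mouse with the highest *Per1*. Other genes of the list went the other way in that mouse. *Fos*, *Fosb*, *Egr1*, *Ier2* and *Atf3* had their highest values of all mice there, with 101, 4.28, 35.1, 74.8 and 38.9 FPKM. The remaining genes that passed the filter peaked in other mice.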
